A study of Mus musculus with 9 samples.

Results

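The serotonin receptor genes measured on these arrays were 9 of the 10 chosen by symbol, namely Htr1a, Htr1b, Htr1d, Htr2c, Htr3a, Htr4, Htr5a, Htr6 and Htr7. No probe set used here named Htr2a alone, so that gene has no value. The 9 genes were covered by 17 of the 45037 probe sets, and were fitted together with all 18193 genes of the arrays. The main value of a gene is that of its brightest probe set by the mean of all 9 arrays, and every other probe set is given beside it.

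The samples were striata of 9 female mice of a mixed C57Bl/6 and CBA strain, 5 of them R6/2 (R62_86, R62_95, R62_105, R62_107 and R62_109) and 4 wild-type (animals 46, 47, 49 and 66). R6/2 mice keep their own huntingtin genes and carry a transgene of the first exon of human HTT, whose CAG repeat is expanded and which the human promoter drives, as a model of Huntington disease. All mice were 12 weeks old. In days, mouse R62_86 and the wild-type mice were 85 and the other R6/2 mice were 83. Each array held the RNA of 1 mouse, and the comparison asked which striatal transcripts differ between R6/2 and wild-type mice.

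Serotonin reaches the striatum through fibres of the raphe nuclei in the brainstem, and the striatal cells supply the receptors. Receptors of the first family and Htr5a act through the inhibitory Gi/o proteins, which lower cyclic AMP. Those of the second family act through Gq/11 and phospholipase C, Htr4, Htr6 and Htr7 act through Gs and raise cyclic AMP, and Htr3a forms an ion channel. Htr1b and Htr1d receptors are placed largely on axon terminals, where they restrain transmitter release.

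Values are log2 expression, on which a difference of 1 is a doubling, and the medians of the 9 arrays lay between 5.37 and 5.44. The mean of 11 spiny projection neuron markers (the output neurons that make up most of the striatum) lay between 9.66 and 10.64 in the R6/2 arrays and between 11.74 and 12.08 in the wild-type arrays, so the defining markers of the labelled tissue were bright in both genotypes. All 11 passed the test as lower in R6/2 mice, against 7.57% of all genes. Some arrays stood apart. The score of 11 choroid plexus markers was 6.81 in mouse R62_107 against 4.98 to 5.71 in the other R6/2 mice, and 8.14 and 8.35 in wild-type mice 47 and 66 against 5.40 and 5.41 in wild-type mice 46 and 49. The score of 11 cortex markers lay between 6.85 and 7.73 in R6/2 mice and between 6.17 and 7.18 in wild-type mice (exact two-sided permutation p = 0.0556 over all splits of the mice). Results that touch these arrays are given with and without them.

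Of the 9 receptor genes, 3 were lower in R6/2 striatum and 0 higher by limma at an adjusted p of 0.05, against 7.57% of all genes called lower and 9.28% called higher (16.9% either way). At an unadjusted p of 0.05, 4 were lower and 1 higher, against 2695 lower and 2973 higher of all 18193 genes. The 3 that fell were Htr1b, Htr1d and Htr4, and in all 3 the genotypes did not overlap, as in 8.09% of all genes in that direction (0 of the 9 did so as higher, against 9.18%). The median log2 difference of the 9 was -0.01, against -0.02 over all genes. Counted over probe sets, 6 of 17 passed as lower and 0 as higher, against 4.57% and 5.83% of all probe sets, and the genotypes did not overlap in 5 of 17 as lower and 0 as higher, against 6.01% and 7.40%. Since the arrays came from whole tissue, fewer cells of a type and less RNA per cell cannot be told apart in any of these values.

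**Figure D1:**
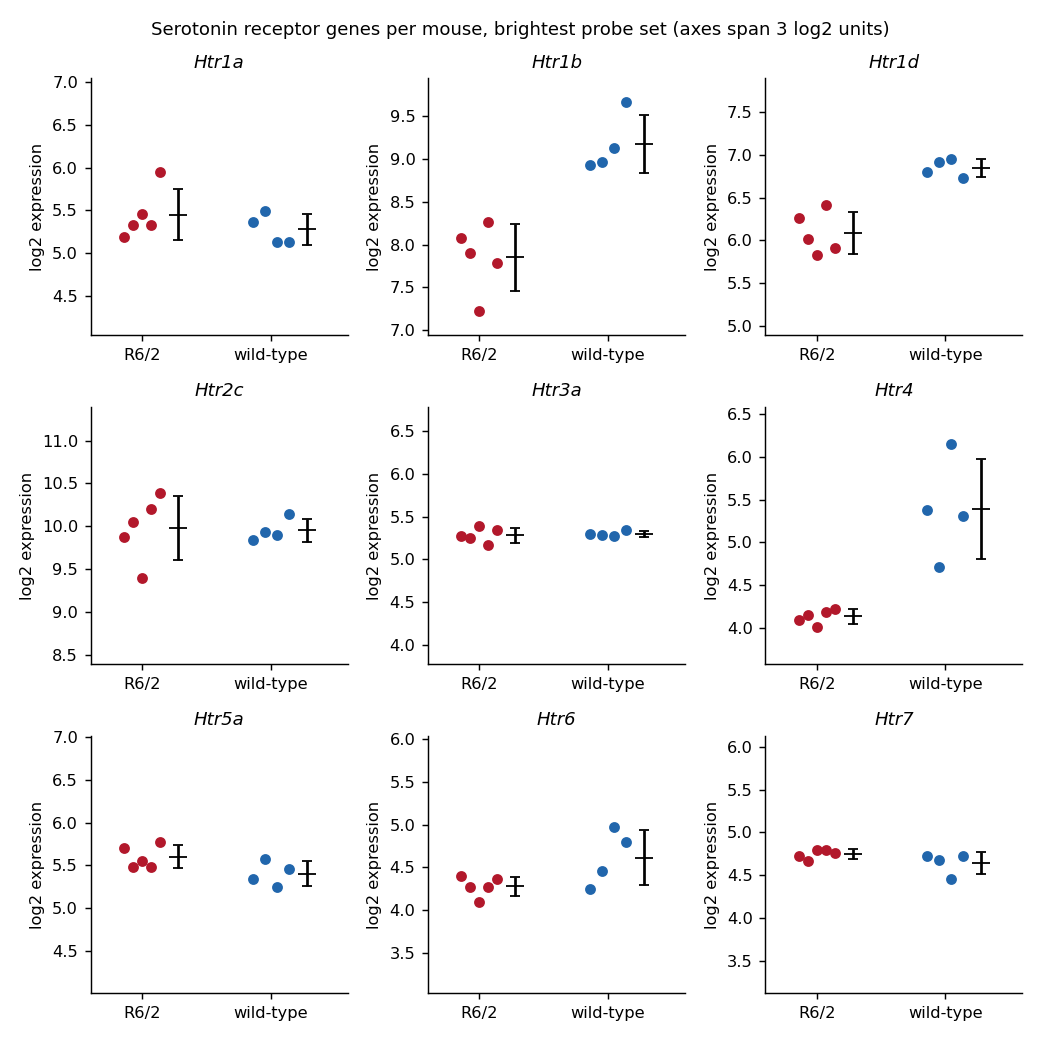
Log2 expression of the 9 receptor genes in each mouse, from the brightest probe set, with R6/2 mice in red and wild-type mice in blue; the black bars are the mean and SD (n = 5 and n = 4), and each axis spans 3 log2 units. Htr1b, Htr1d and Htr4 show no overlap between genotypes, while the points of Htr3a and Htr7 lie close together in both.

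Htr1b encodes an inhibitory autoreceptor and heteroreceptor, which spiny projection neurons make and carry to their terminals in the pallidum and substantia nigra. Its main probe set read 8.07, 7.90, 7.22, 8.27 and 7.79 in mice R62_86, R62_95, R62_105, R62_107 and R62_109, in that order here and later, against 8.94, 8.97, 9.13 and 9.66 in wild-type mice 46, 47, 49 and 66. Every R6/2 mouse was below every wild-type mouse, mouse R62_105 was the lowest and wild-type mouse 66 the highest. The means were 7.85 ± 0.40 in R6/2 mice (SD, n = 5) and 9.17 ± 0.34 in wild-type mice (SD, n = 4), a log2 difference of -1.32 ± 0.21 (SE; limma adjusted p 0.0021), or 0.400 of the wild-type level. The second probe set, drawn from the RefSeq mRNA and dimmer, gave 6.25, 5.91, 6.11, 6.40 and 6.25 in R6/2 mice, against 6.73, 6.69, 6.57 and 6.66 in wild-type mice. There too the genotypes did not overlap, at a smaller log2 difference of -0.48 ± 0.09 (limma adjusted p 0.0117 over all probe sets). With the mean of both probe sets the gene gave -0.90.

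Htr1d encodes the closest relative of the Htr1b receptor and likewise acts through Gi/o proteins. Its main probe set read 6.26, 6.01, 5.83, 6.42 and 5.91 in R6/2 mice, against 6.80, 6.92, 6.95 and 6.73 in wild-type mice. As with Htr1b, mouse R62_107 was the highest and mouse R62_105 the lowest of the R6/2 mice, and the genotypes did not overlap. The log2 difference was -0.76 ± 0.12 (SE; limma adjusted p 0.00192), or 0.589 of the wild-type level as read. The R6/2 values lay inside the range of genes of other organs, given below with Htr3a, so the exact fold is not settled. The 2 other probe sets of Htr1d passed as well. The one with the suffix x, which marks probes that may match other transcripts, gave 5.04, 4.94, 4.15, 5.26 and 4.57 in R6/2 mice, against 6.53, 6.15, 6.58 and 5.97 in wild-type mice (log2 difference -1.52 ± 0.22, adjusted p 0.00277). The RefSeq mRNA probe set gave 5.20, 5.05, 4.63, 5.74 and 5.12 in R6/2 mice, against 6.25, 6.16, 5.66 and 5.81 in wild-type mice (-0.82 ± 0.20, adjusted p 0.0288). In this RefSeq probe set mouse R62_107 lay above wild-type mouse 49, so the genotypes overlapped. Its call was kept in 3 of the 9 fits that left out 1 mouse, those without wild-type mouse 49 or mouse R62_95 or R62_107, while both probe sets of Htr1b and the 2 other ones of Htr1d passed in all 9.

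Htr1b lies on chromosome 9 (81628291 to 81633832) and Htr1d on chromosome 4 (136423522 to 136444405) of GRCm38.p6, so these 2 genes are not neighbours. Their promoters are shown because both genes are lower in the same mice, and that of Htr2c because its value did not pass. Htr4 was lower in these mice as well, but its promoter was not read. Each is the 250 bases before an annotated start, in RefSeq on GRCm38.p6, written 5′ to 3′ on the strand of the gene, with capitals for a GC box (GGGCGG on either strand).

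Htr1b, chr9:81633833-81634082, minus strand: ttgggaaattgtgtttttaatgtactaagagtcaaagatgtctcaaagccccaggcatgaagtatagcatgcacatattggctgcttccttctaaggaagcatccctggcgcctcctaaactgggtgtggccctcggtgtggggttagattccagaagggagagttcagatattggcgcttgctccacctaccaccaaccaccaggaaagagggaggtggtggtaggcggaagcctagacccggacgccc

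Htr1d, the first of 2 annotated starts, chr4:136423274-136423523, plus strand: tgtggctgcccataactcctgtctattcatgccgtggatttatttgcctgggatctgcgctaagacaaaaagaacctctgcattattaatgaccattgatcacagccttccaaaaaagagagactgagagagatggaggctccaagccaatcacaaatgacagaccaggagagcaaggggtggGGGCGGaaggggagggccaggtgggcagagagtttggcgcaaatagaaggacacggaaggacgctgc

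Htr2c, chrX:146962263-146962512, plus strand: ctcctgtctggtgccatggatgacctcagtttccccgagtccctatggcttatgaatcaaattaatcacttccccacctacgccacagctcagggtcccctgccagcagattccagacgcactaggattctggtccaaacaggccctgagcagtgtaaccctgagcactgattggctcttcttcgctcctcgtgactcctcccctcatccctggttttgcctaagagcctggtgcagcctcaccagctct

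The promoter at the first Htr1d start held 1 GC box, that at the second start 3, and those of Htr1b and Htr2c none, against 32.7% of 32851 promoters with at least 1. Neither the TATA box (TATAAA, in 12.4% of promoters), nor the half-site of the cyclic AMP response element (TGACG, in 17.8%), nor the Egr site (GCGTGGGCG, in 0.536%) was found in any of these on either strand. GC content was 52.4% for Htr1b, 51.6% and 72.4% for the first and the second start of Htr1d and 55.6% for Htr2c. Promoters were read for 7 of the 9 measured genes, and not for Htr3a or Htr4. Among those read, that of Htr7 alone held a TGACG and a GCGTGGGCG match. These are matches of letters, not sites of binding.

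Htr1a, the remaining gene of this family among the 9 (Htr1f is given further below), encodes the somatodendritic receptor of raphe neurons and of cortical and hippocampal neurons. It read 5.18, 5.33, 5.45, 5.33 and 5.95 in R6/2 mice, against 5.36, 5.50, 5.13 and 5.13 in wild-type mice. The genotypes overlapped and mouse R62_109 was the highest. The log2 difference was 0.17 ± 0.15 (limma adjusted p 0.473), with a 95% interval of -0.15 to 0.49. The second probe set gave 0.00 ± 0.10. Htr5a, which also couples to Gi/o proteins, read 5.71, 5.49, 5.55, 5.49 and 5.77 in R6/2 mice, against 5.33, 5.57, 5.25 and 5.46 in wild-type mice. It had a difference of 0.20 ± 0.09 and was the 1 receptor higher at an unadjusted p of 0.05. Over all genes limma gave an adjusted p of 0.157, and its second probe set gave 0.00 ± 0.09.

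Htr4 encodes a receptor that stimulates adenylyl cyclase and is found on spiny projection neurons and cholinergic interneurons. Its main probe set read 4.10, 4.16, 4.01, 4.19 and 4.22 in R6/2 mice, against 5.38, 4.71, 6.14 and 5.31 in wild-type mice 46, 47, 49 and 66. The R6/2 mice lay close together and all below the wild-type mice, which were spread more widely, with mouse 47 the lowest and mouse 49 the highest. Means were 4.13 ± 0.08 in R6/2 mice (SD, n = 5) and 5.39 ± 0.59 in wild-type mice (SD, n = 4), a log2 difference of -1.25 ± 0.22 (limma adjusted p 0.0035). The R6/2 values lie at the level of genes of other organs, whose score was 3.96 to 3.98 in R6/2 mice and 3.98 to 4.10 in wild-type mice, so transcript above background was not shown in R6/2 mice and no exact fold is given for Htr4. The second probe set, dimmer still, gave 3.85, 3.90, 3.94, 3.75 and 3.69 in R6/2 mice, against 4.07, 4.12, 3.90 and 4.25 in wild-type mice. It did not pass (-0.26 ± 0.08, adjusted p 0.0787), and it overlapped because wild-type mouse 49 was lower there than mouse R62_105. That mouse, the highest for Htr4 in the first probe set, was thus the lowest wild-type mouse in the second. Without it the second probe set passed (-0.32, adjusted p 0.0326). The gene lies on chromosome 18 (62323546 to 62503027).

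Of the other receptors that act through Gs, Htr6 is enriched in the striatum and is made by spiny projection neurons. Its single probe set read 4.40, 4.27, 4.10, 4.27 and 4.36 in R6/2 mice, against 4.25, 4.46, 4.97 and 4.79 in wild-type mice. Mouse R62_105 was below every wild-type mouse, while wild-type mouse 46 was below the 4 other R6/2 mice, so the genotypes overlapped. The difference of -0.34 ± 0.13 did not pass (limma adjusted p 0.112, 95% interval -0.63 to -0.04). Leaving out wild-type mouse 46 gave a call, at -0.46 with a limma adjusted p of 0.0269 (7.29% of all genes were lower in that fit). Htr7 read 4.72, 4.66, 4.79, 4.79 and 4.76 in R6/2 mice, against 4.72, 4.68, 4.45 and 4.72 in wild-type mice. Its difference was 0.10 ± 0.07 (adjusted p 0.359, 95% interval -0.05 to 0.26), and that of its second probe set 0.14 ± 0.09.

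Htr2c encodes the Gq/11-coupled receptor whose transcript is edited by adenosine deamination and which is abundant in the choroid plexus as well as in neurons. It read 9.87, 10.05, 9.39, 10.20 and 10.38 in R6/2 mice, against 9.84, 9.94, 9.90 and 10.14 in wild-type mice. The wild-type values lay inside the R6/2 range, whose ends were mouse R62_105 and mouse R62_109. The log2 difference was 0.03 ± 0.17 (limma adjusted p 0.933), with a 95% interval of -0.34 to 0.40. The interval thus leaves out falls of the size measured for Htr1b, Htr1d and Htr4, whose differences were -1.32, -0.76 and -1.25. The second probe set read 7.73, 7.20, 6.96, 7.99 and 8.21 in R6/2 mice, against 7.71, 7.33, 7.35 and 7.74 in wild-type mice, again with mice R62_105 and R62_109 at the ends (0.08 ± 0.24, adjusted p 0.865). Within genotypes the 2 probe sets of Htr2c had a Pearson correlation of 0.79 over the 9 arrays, against 0.31 for the 2 of Htr1b and -0.62 for the 2 of Htr4, as a description of arrays that share each probe set's gene.

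The choroid plexus score is set beside Htr2c here, since that tissue makes the transcript. Mouse R62_107, with a choroid plexus score of 6.81, had the second highest Htr2c of all 9 mice at 10.20, and mouse R62_109 had the highest, 10.38, at a score of 5.66. Wild-type mice 47 and 66, with scores of 8.14 and 8.35, had Htr2c at 9.94 and 10.14, above the 9.84 and 9.90 of wild-type mice 46 and 49, with scores of 5.40 and 5.41. Within genotypes the Pearson correlation of Htr2c with the score was 0.44 over the 9 arrays. None of the 11 choroid plexus markers passed by limma (1 was lower and 0 higher at an unadjusted p of 0.05), and the score, at a difference of -1.16, gave p = 0.222 by exact permutation. With the score as a covariate Htr2c was 0.15 ± 0.18, and without mouse R62_107 and wild-type mice 47 and 66 it was 0.06 ± 0.24.

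**Figure D2:**
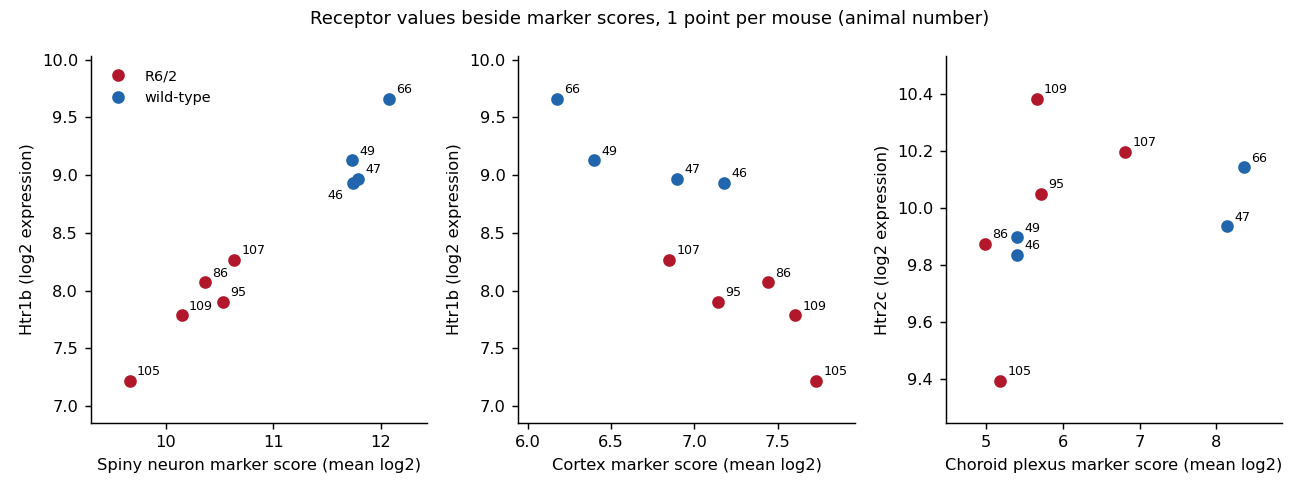
Each point is 1 mouse, named by its animal number, with R6/2 in red and wild-type in blue; the log2 expression of Htr1b stands against the spiny neuron and cortex marker scores, and that of Htr2c against the choroid plexus score. Mouse R62_105 has the lowest Htr1b value (7.22), the lowest spiny neuron score (9.66) and the highest cortex score (7.73).

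Htr3a, the subunit of the serotonin-gated channel found on GABA interneurons, read 5.27, 5.26, 5.39, 5.16 and 5.35 in R6/2 mice, against 5.30, 5.28, 5.27 and 5.34 in wild-type mice. The difference was -0.01 ± 0.06 (limma adjusted p 0.915, 95% interval -0.15 to 0.12). Its spread over the 9 arrays was in the lowest 4.43% of all genes, and a probe set that follows no variation can miss a change. Of the GABA interneuron markers 3 of 13 were lower and 0 higher, against 7.57% and 9.28% of all genes. Their score was 7.33 to 7.61 in R6/2 mice and 7.27 to 7.55 in wild-type mice. Brightness alone did not settle which receptors were detected. The 12 measured genes of other organs, such as the pancreatic hormone gene Gcg and the sperm protein gene Prm1, had means over the R6/2 mice from 2.92 to 6.52 and over the wild-type mice from 2.95 to 6.46. Of the 9 receptors only Htr1b, Htr1d and Htr2c reached above that range in any mouse. By their main probe sets Htr1b and Htr2c did so in every mouse. Htr1d did so only in wild-type mice (6.73 to 6.95), and its R6/2 values (5.83 to 6.42) lay inside the range.

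**Figure D3:**
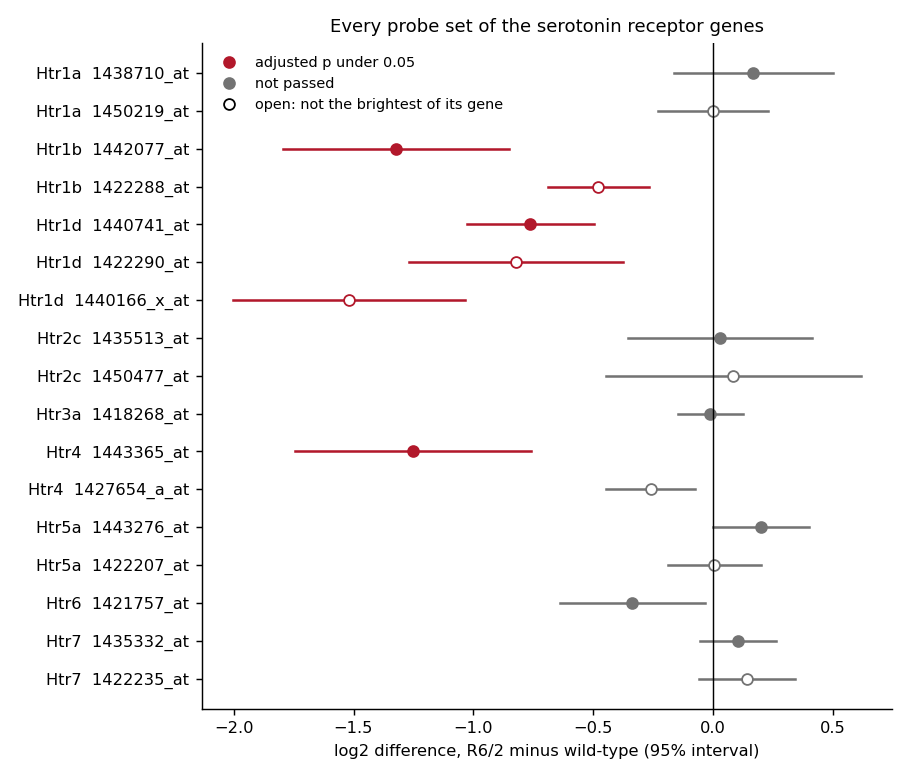
Log2 difference (R6/2 minus wild-type) of each of the 17 probe sets with its 95% interval from limma over all probe sets; red marks an adjusted p under 0.05, and open circles mark probe sets that are not the brightest of their gene. All probe sets of Htr1b and Htr1d and 1 of the 2 of Htr4 are red, and the intervals of Htr2c and Htr3a span 0.

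Marker scores of several cell types also differed between the genotypes. The spiny neuron score was lower in each R6/2 mouse than in any wild-type mouse, with means of 10.27 ± 0.39 in R6/2 mice and 11.83 ± 0.16 in wild-type mice (exact permutation p = 0.00794, the smallest the design allows). The score of 6 cholinergic interneuron markers, 3 of which fell, was 5.31 ± 0.16 in R6/2 mice and 5.82 ± 0.12 in wild-type mice (exact permutation p = 0.00794). Of 8 astrocyte markers 4 fell, and over all genes 7.57% were called lower. Adjusted over the 7 exact permutation tests of scores, the spiny neuron, cholinergic and astrocyte scores each gave p = 0.0278 and the cortex score 0.0778. The genes of other organs, which striatum is not known to express, gave p = 0.0278 as well by the same exact permutation test, at a difference of -0.07. Within genotypes, over the 9 arrays, Htr1b had a Pearson correlation of 0.91 with the spiny neuron score, -0.81 with the cortex score, 0.84 with the cholinergic, 0.14 with the astrocyte and 0.48 with the choroid plexus score. For Htr1d these were 0.60, -0.46, 0.74, 0.60 and 0.13, in the same order. For Htr4 they were 0.03, -0.35, 0.47, 0.71 and -0.59, and for Htr2c 0.70, -0.47, 0.62, 0.01 and 0.44. With the GABA interneuron score the correlations were -0.79 for Htr1b, -0.40 for Htr1d, -0.35 for Htr4 and -0.27 for Htr2c. These describe 9 arrays that each give both values, and the part of cell composition in the receptor differences was not tested by them.

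The differences were also fitted with these scores. With the choroid plexus score as a covariate Htr1b was -1.15 ± 0.22, Htr1d -0.74 ± 0.14 and Htr4 -1.47 ± 0.21, and all 3 passed (5.72% of all genes were called lower in that fit). Without the 3 choroid-rich arrays they were -1.29 ± 0.22, -0.87 ± 0.13 and -1.64 ± 0.19 and passed again (2.69% called lower). With the cortex score as a covariate Htr1b passed at -0.81 ± 0.18 (adjusted p 0.0487), while Htr1d (-0.61 ± 0.15, adjusted p 0.0669) and Htr4 (-1.02 ± 0.29, adjusted p 0.0994) did not, in a fit that called 1.66% of all genes lower. With the spiny neuron score as a covariate, which the genotypes do not share in range, Htr1b was 0.37 ± 0.31, Htr1d -0.17 ± 0.31, Htr4 -1.20 ± 0.67 and Htr2c 1.08 ± 0.39, the 1 receptor past an unadjusted p of 0.05, and 0 of 18193 genes passed by limma (743 higher and 597 lower at an unadjusted p of 0.05). With that score subtracted from each array, a scaling chosen after the data were seen and given with no test, the 3 genes turned to 0.24, 0.80 and 0.31, since they fell by less than the mean of the spiny neuron markers. With age in days as a covariate Htr1b was -1.10 ± 0.35, Htr1d -0.59 ± 0.19 and Htr4 -1.29 ± 0.38. None passed by limma, where 0.165% of all genes did (0.143% as lower). At an unadjusted p of 0.05, 3 receptors were lower in that fit, as were 1347 of all 18193 genes. Mouse R62_86 is the only R6/2 mouse of the wild-type age, so this fit rests on 1 mouse.

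The 3 receptors also passed, with the share of all genes called lower in brackets, in the fit over all probe sets (6.30%), the mean of the probe sets of a gene (7.16%), quantile normalization (8.07%), centring on the array median (7.73%) or on the housekeeping genes, limma with trend and robust settings (7.50%), array weights (9.18%), no moderation of the variance (5.08%) and an adjusted p of 0.01 (3.57%). Among the brighter genes, 11.9% of which were lower, Htr1b passed, and Htr1d and Htr4 were too dim to be tested. They passed as well in each fit without 1 mouse, namely without wild-type mice 47 (6.07%), 49 (7.03%), 66 (5.83%) and 46, and without R62_86 (5.90%), R62_95 (7.62%), R62_105 (5.61%), R62_107 (6.56%) and R62_109 (5.82%).

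**Figure D4:**
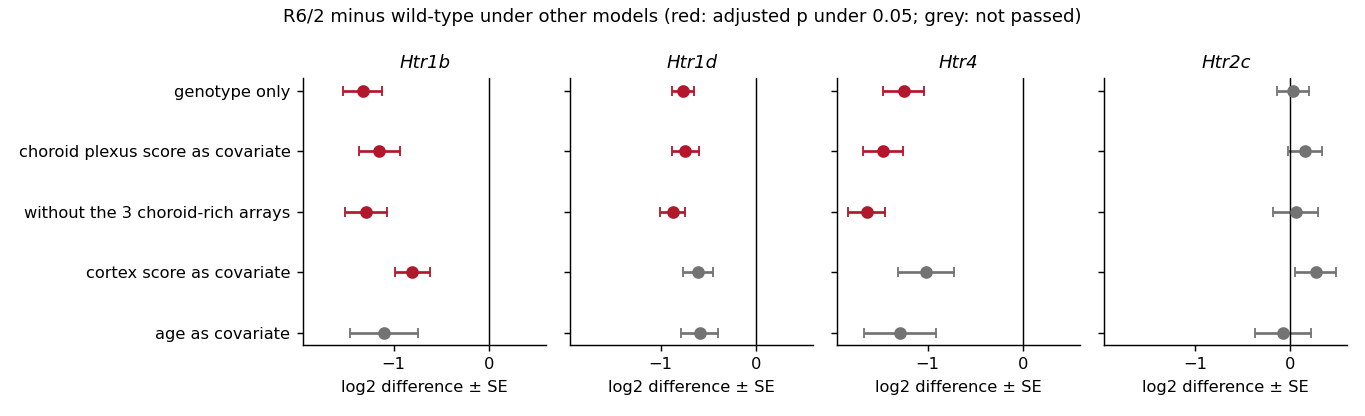
Log2 difference (R6/2 minus wild-type) with its SE for Htr1b, Htr1d, Htr4 and Htr2c, in the fit with genotype only and in 4 other fits; red marks an adjusted p under 0.05. Htr1b, Htr1d and Htr4 lie below 0 in each of the 5 fits and Htr2c, between -0.08 and 0.27, is red in none, and no red point remains with age as a covariate. The fit with the spiny neuron score as a covariate, where Htr1b was 0.37 and Htr2c 1.08, is not drawn.

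By deviations from the genotype means over the 9 arrays, the genes most like each receptor were named for the 7 receptors whose spread over the arrays was above the median of all genes. For Htr1b they were Rgs2 (Pearson correlation 0.98), a regulator of G protein signalling that fell by 0.94 in R6/2 mice, then Slc35d3 (0.96), which fell by 1.30, and Pbx2 (0.96), at -0.16. For Htr2c they were Clmp (0.97), Reln (0.96), which fell by 0.51, and Plekha8 (0.95). Htr1d was nearest to Piwil1 (0.93), Ldhal6b (0.92) and S1pr1 (0.92), and Htr4 to Rdh12, Slfn4 (both 0.99) and Lrrc75b (0.98). Htr6 was nearest to Bcar3 (0.98), Cystm1 (0.97) and 4930503E24Rik (0.96), Htr1a to Pdlim3 (0.96), Cyp1a1 (0.95) and Mir124-2hg (0.95), and Htr5a to Smim31 (0.97), Tmem88 (0.97) and Arhgap29 (0.95). With 18193 genes and 9 arrays, high correlations of this kind are easily reached, and they are given as a description.

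The other receptor genes, Htr1f, Htr2b, Htr3b and Htr5b, gave no call. Htr1f was -0.47 ± 0.20 (limma adjusted p 0.139), Htr2b -0.19 ± 0.11, Htr3b 0.03 ± 0.09 and Htr5b -0.16 ± 0.06. At an unadjusted p of 0.05 2 of the 4 were lower, Htr1f and Htr5b, against 2695 of all 18193 genes. These 2 passed with housekeeping centring (adjusted p 0.0463 and 0.0374), a fit that called 14.1% of all genes lower.

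Of 13 genes of serotonin synthesis, transport and breakdown, 1 rose, 2 fell and 10 did not pass. Spr, which makes the cofactor of tryptophan hydroxylase, rose by 0.42 ± 0.10, but did not pass with the arrays centred on 6 housekeeping genes (adjusted p 0.0676). The fallers were Aldh2, an aldehyde dehydrogenase that oxidises the product of serotonin breakdown (-0.45 ± 0.09), and Maob, a monoamine oxidase (-0.38 ± 0.11, adjusted p 0.0443). With the mean of its probe sets Aldh2 was -0.18 and did not pass (adjusted p 0.0759). Maob did not pass with centring on the array median (adjusted p 0.0501) or with the choroid plexus score as a covariate (adjusted p 0.115), nor did Spr with that score (adjusted p 0.0582). Maoa, the oxidase with the higher affinity for serotonin, was 0.20 ± 0.09 (adjusted p 0.148). The markers of serotonin neurons were dim in both genotypes. Tph2, the brain tryptophan hydroxylase, had means of 2.99 ± 0.08 in R6/2 mice and 3.27 ± 0.29 in wild-type mice (adjusted p 0.125), and the serotonin transporter gene Slc6a4 3.96 ± 0.09 and 4.01 ± 0.21 (adjusted p 0.774). Tph1 was -0.07 ± 0.08 and the vesicular transporter gene Slc18a2 0.13 ± 0.33. Slc18a2 ranged from 3.56 to 5.68 in R6/2 mice and from 4.54 to 4.83 in wild-type mice. Ddc, the decarboxylase that completes serotonin synthesis, was 0.40 ± 0.16 (adjusted p 0.109), and Gch1, Pts, Qdpr and Slc18a1 lay between -0.12 and 0.03.

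The signalling genes downstream of the receptors moved in both directions. Of 73 measured genes of all 6 pathway lists, 15 rose and 11 fell, at a median of 0.03, where 9.28% of all genes rose and 7.57% fell. The same shares stand behind the counts of each list. With the arrays centred on 6 housekeeping genes, which moved the median of all genes to -0.15, 6 rose and 16 fell, against 14.1% of all genes lower and 2.65% higher in that fit, so the count of rises depends on the scaling. In the Gi/o branch, on which Htr1b and Htr1d act, 3 of 12 rose and 2 fell. Rgs4 (-1.69 ± 0.16) and Rgs9 (-1.71 ± 0.20), which speed the switching off of Gi/o proteins, fell the most, and Rgs9 is also among the spiny neuron markers. The Gi subunit gene Gnai1 rose by 0.35 ± 0.08, Gnaz by 0.26 ± 0.07 and Kcnj3, a potassium channel subunit opened by Gi/o proteins, by 0.95 ± 0.29, though none of these 3 passed after housekeeping centring (adjusted p 0.0898, 0.299 and 0.055). With the mean of the probe sets Gnai1 (adjusted p 0.0730) and Gnaz (0.289) did not pass, and Rgs9 was -1.12. With the choroid plexus score as a covariate Gnai1, Gnaz and Kcnj3 did not pass (adjusted p 0.0504, 0.0902 and 0.153). With the cortex score as a covariate Kcnj3 was 0.09 ± 0.14.

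In the Gs branch, on which Htr4, Htr6 and Htr7 act, 6 of 17 rose and 3 fell. Gnal, the Gs-like subunit that predominates in the striatum, fell by 0.59 ± 0.12 and Gnas, which encodes Gs itself, rose by 0.60 ± 0.10. Adcy5, the main adenylyl cyclase of spiny neurons and one of their markers, fell by 1.49 ± 0.20, and Prkar2b, a regulatory subunit of protein kinase A, by 0.53 ± 0.11. The other risers with the smallest p were Prkar2a (0.68 ± 0.09), Prkar1b (0.53 ± 0.11) and Prkacb (0.28 ± 0.06), of protein kinase A. With the mean of the probe sets Gnas was 0.19 and did not pass (adjusted p 0.0537), Prkacb was 0.07 and did not pass (adjusted p 0.814), and Adcy5 was -0.54 and Prkar2a 0.45. After housekeeping centring Prkacb did not pass either (adjusted p 0.183). In the Gq/11 branch, on which Htr2c acts, 2 of 12 rose and 2 fell, with Prkcb, a protein kinase C gene, at -0.62 ± 0.07, Plcb1, a phospholipase C gene, at -0.59 ± 0.08, Gnaq at 0.39 ± 0.07 and Plcb4 at 0.51 ± 0.14. Neither riser passed after housekeeping centring (adjusted p 0.0715 and 0.0766), and Plcb4 did not pass with the mean of its probe sets (adjusted p 0.106) or with the choroid plexus score as a covariate (adjusted p 0.0950).

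Among 15 measured receptor partners and RNA editing enzymes 3 rose and 2 fell. Mpdz, a scaffold that binds the tail of the Htr2c receptor, rose by 0.44 ± 0.08, and the receptor kinase genes Grk3 and Grk6 by 0.72 ± 0.15 and 0.32 ± 0.06, of which Grk6 did not pass after housekeeping centring (adjusted p 0.184). Dlg4, a postsynaptic scaffold, fell by 0.63 ± 0.10 and Grk5 by 0.63 ± 0.12. S100a10, which brings Htr1b and Htr4 receptors to the cell surface, was 0.52 ± 0.27 (adjusted p 0.22). The editing enzyme genes Adar (0.18 ± 0.10), Adarb1 (0.01 ± 0.07) and Adarb2 (0.13 ± 0.09) did not pass. With the cortex score as a covariate 1 of the 73 pathway genes rose (Prkar2a) and 6 fell (Rgs4, Rgs9, Prkcb, Plcb1, Adcy5 and Dlg4). In that fit 1.23% of all genes rose and 1.66% fell.

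**Figure D5:**
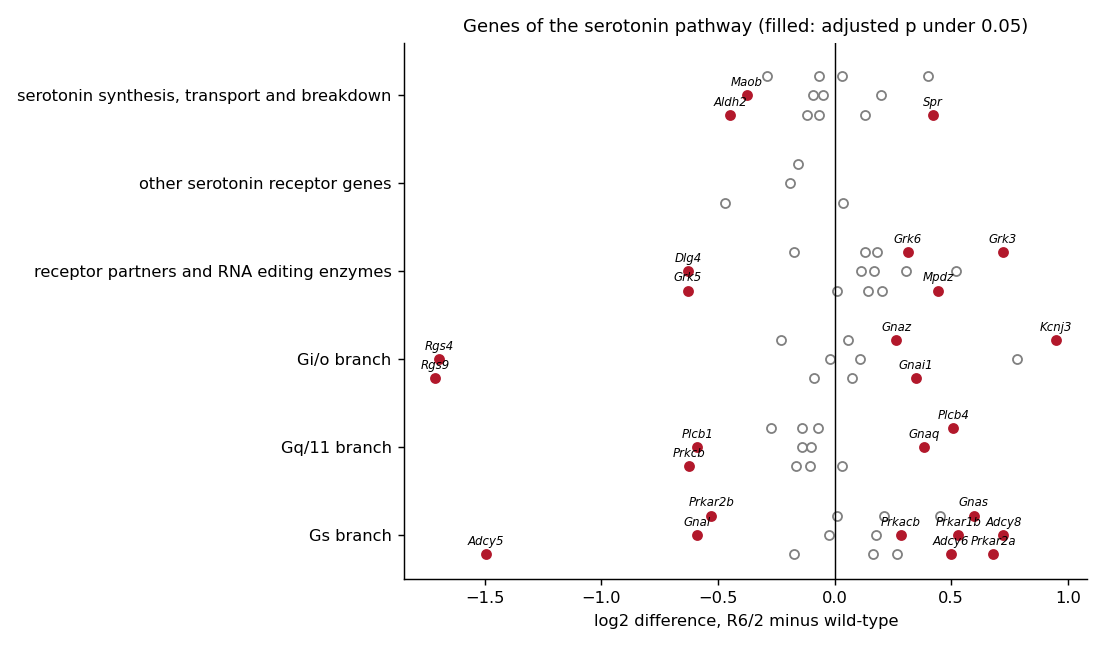
Log2 difference (R6/2 minus wild-type) of the measured genes of the 6 pathway lists from the brightest probe set, 1 point per gene and list; filled red points have an adjusted p under 0.05 and are named. Rgs4, Rgs9 and Adcy5 lie below -1 (Adcy5 at -0.54 with the mean of its probe sets), and the rises stay under 1.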

How the data were processed

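RNA was extracted with TRIzol and columns, labelled by in vitro transcription and hybridised to 1 array per mouse, per the labels' protocols. The deposited log2 values of 45101 probe sets come from RMA in affy, per the submitters' processing notes, with no versions stated there. RMA gives the arrays a shared distribution, so changes of total RNA are not seen. The number of arrays limits the precision.

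Platform annotation named 1 gene for 34945 probe sets (34741 symbols updated through RefSeq, GRCm38.p6), several for 932 and none for 9160, and 64 controls were left out. The lowest correlation of any 2 arrays was 0.979 and at most 3.93% of their values were identical, so each counted as 1 replicate. Genotypes were compared with limma 3.58.1 in R 4.3.3 over 18193 genes (brightest probe set) and over 45037 probe sets, two-sided, with genotype as the only term and Benjamini-Hochberg adjustment over the whole table. Marker scores (list means) were compared by exact permutation. The fit was tested on simulated data. Named were all receptors, of each pathway list at most 4 passing genes a direction by smallest p, every synthesis gene, and the 3 genes most like each receptor of sufficient spread. S100a10, the editing enzymes and the other receptors were named after their values were seen. Receptors, lists and alternatives were chosen with earlier results of these data known. Figures used matplotlib 3.10.9.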

Additional observations from a re-analysis of the deposited data

Results flagged for a closer look

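Groups of 4 or 5 mice were searched for a mouse far from the others, over 17 receptor probe sets and 6 marker scores in each genotype. Of 46 such groups 3 met Dixon's limit, and chance gives about 1 in 20. In the second probe set of Htr5a, mouse R62_95 read 4.14 against 4.49 to 4.53 in the other R6/2 mice. In the main probe set of Htr7, wild-type mouse 49 read 4.45 against 4.68 to 4.72 in the other wild-type mice. The spiny neuron score of wild-type mouse 66 was 12.08 against 11.74 to 11.79 in the other wild-type mice, and that mouse also had the highest Htr1b value. Without it Htr1b stayed past the threshold, as in every fit that left out 1 mouse.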

How the results depend on the processing

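Htr1b, Htr1d and Htr4 stayed lower and past the threshold in all 9 fits that left out 1 mouse (ranges -1.43 to -1.16, -0.85 to -0.70 and -1.48 to -1.0; adjusted p up to 0.0112), under the other probe set rules, normalizations and variance models, and at an adjusted p under 0.01. The exceptions were as follows. Of the 9 receptors, 1 passed among the brighter genes, where only Htr1b and Htr2c were tested, and 1 with the cortex score as a covariate. None (0) passed with age or the spiny neuron score as a covariate by limma, where 3 and 1 passed at an unadjusted p of 0.05. The spiny neuron score separates the genotypes, and with it 0 of 18193 genes passed (743 higher and 597 lower at an unadjusted p of 0.05), so that fit says nothing of stability. Of the pathway genes, 0 passed with age, 0 with the spiny neuron score, 7 with the cortex score and 9 without the 3 choroid-rich arrays, against 26. Calls over all genes fell in these fits too, from 16.9% to 0.165% with age and 0 with the spiny neuron score. With the cortex score 1.66% were lower and 1.23% higher. Without the 3 arrays 489 were lower and 393 higher of 18193. Leaving out 1 mouse gave 3 to 4 receptors, 5 to 7 receptor probe sets and 22 to 26 pathway genes. The astrocyte score did not pass with the median of its genes (-0.22, exact permutation p = 0.0635), and the GABA interneuron score, which did not pass, ranged from -0.00217 to 0.0911 when 1 mouse was left out.

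Signs that turned, all without a call, were those of Htr1a with age (-0.10), the cortex score (-0.0735) and the spiny neuron score (-0.31), of Htr2c with housekeeping centring (-0.10) and age (-0.0784), of Htr7 with housekeeping centring (-0.0275), of Htr3a without the choroid-rich arrays (0.0320), and, with the spiny neuron score, of Htr6 (0.0181) and Htr1b (0.37). When 1 mouse was left out Htr2c ranged from -0.0741 to 0.17 and Htr3a from -0.0390 to 0.0177. Htr6 passed with housekeeping centring (-0.47, adjusted p 0.0427), where 14.1% of all genes were called lower. The cause of these shifts was not tested. With the spiny neuron score subtracted from each array, an alternative chosen after seeing the data, Htr1b (0.24), Htr1d (0.80), Htr3a (1.55), Htr4 (0.31) and Htr6 (1.23) turned to higher in R6/2 mice, because the score fell by 1.56. This adds the same amount to every gene. Its limma fit was run once and is not used, as it gave all genes one error and called nearly all of them. No paired analysis was possible because the replicate numbers are animal numbers that the 2 genotypes do not share. Dim probe sets limit the values of Htr1a, Htr3a, Htr4, Htr5a, Htr6 and Htr7, where small differences may be missed. They also limit the R6/2 values of Htr1d, which lay inside the range of genes of other organs.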
